A study of Rattus norvegicus with 6 samples.

Results

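Transcripts of 6 immune-associated genes were followed in rat oligodendrocyte precursor cells, the dividing cells that give rise to myelinating oligodendrocytes. *Cd69*, *Srgn* and *Rgs1* were taken because they were among the most lowered transcripts in the comparison described here, so their own difference between groups is a description and carries no test. *Ptprc*, *Aif1* and *Cd68* were set beside them as markers of leukocytes, microglia and phagocytes, to see whether the lowered genes and the markers moved together. The 6 genes are 6 of 20174 features on the chip, and each has 1 spot on each array. All 6 were detected on all 6 arrays and lie among the 16141 features that were tested.

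The cells were prepared from the cerebral cortex of Sprague–Dawley rats at embryonic day 15 and kept in culture. They received an shRNA directed against luciferase, the control, or an shRNA directed against VCAM1, and RNA was taken after 20 h in both groups. There were 3 arrays per group, numbered from 1 to 3 in the labels, each hybridized with Cy5-labelled aRNA. The labels do not say whether the samples came from separate cultures or litters, so the p-values measure the spread between these samples. The methods used here describe dissociation, passage and growth medium and name no sort by a surface marker. In RNA from a whole culture, fewer cells of a type and less RNA per cell cannot be told apart.

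CD69 is a C-type lectin receptor that appears on lymphocytes soon after activation and binds the sphingosine-1-phosphate receptor S1PR1, which keeps cells in lymphoid tissue. Serglycin, the product of *Srgn*, is an intracellular proteoglycan on which blood-derived cells store proteases and cytokines in granules. RGS1 speeds up GTP hydrolysis by G protein alpha subunits and thereby shortens signalling from chemokine receptors. CD45, the product of *Ptprc*, is a membrane tyrosine phosphatase of nearly all nucleated blood cells. IBA1, the product of *Aif1*, is a calcium-binding protein that bundles actin and is the usual stain for microglia. CD68 is a lysosomal membrane glycoprotein that is abundant in macrophages and in phagocytic microglia. Microglia are the resident macrophages of the brain and a common companion of glial precursors in cultures made from cortex.

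Signals are given after subtraction of the blank spots and scaling of each array to a median of 25 over its detected features. The number of detected features ran from 15723 to 15900 per control array. With the VCAM1 shRNA label it ran from 14701, in replicate 3, to 17068. The whole distribution of differences shifted with the replicate number. The median log2 difference over the features tested was 0.28 in the pair of replicate 1, 0.18 in that of replicate 2 and -0.27 in that of replicate 3. The array identifiers were not paired with gene names here, so markers of the precursors themselves and other microglial genes were not looked up. The row of the targeted gene is not settled. A candidate, ENSRNOG00000014333, was found through the relative levels and spread listed for adhesion molecules, of which it fitted 2 of 3 other entries. It was the best of 52 features whose spread fitted, and the next best fitted 1 entry. The match by ratio and p that found the 3 lowered genes gave 0 of 14204 features for the targeted gene, the candidate included. The candidate's signal was 1690, 2003 and 2133 on control arrays 1 to 3 and 1829, 2172 and 1798 on the VCAM1-labelled arrays, with overlapping groups (log2 difference -0.0051). If the row is that of the targeted gene, its transcript showed no lowering of the mean in these values. Since the row may be that of another gene, these values neither bear out nor put in doubt the labels, by which the arrays are called VCAM1-labelled.

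*Cd69*, *Srgn* and *Rgs1* were each lower on every VCAM1-labelled array than on every control array. Such a separation in this direction was seen for 2.04% of the features tested and the opposite one for 2.29%, and the choice of these 3 genes used the same contrast, so nothing is read from their count. The signal of *Cd69* (ENSRNOG00000007909) was 192, 166 and 150 on control arrays 1 to 3. On the VCAM1-labelled arrays it was 78.4, 76.5 and 56.6. The lowest control array, replicate 3, was thus far above the highest array of the other group, replicate 1. The means were 169.6 ± 21.2 and 70.5 ± 12.1 (SD, n = 3), a log2 difference of -1.27 with a standard error of 0.24, or 2.42-fold lower.

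*Srgn* (ENSRNOG00000000394) gave 176, 232 and 203 on control arrays 1 to 3 and 102, 108 and 78.9 on the VCAM1-labelled arrays. The groups did not overlap, and the highest control array was replicate 2, where for *Cd69* it was replicate 1. The means were 203.7 ± 28.4 and 96.4 ± 15.4 (SD, n = 3), a log2 difference of -1.08 with a standard error of 0.24, or 2.12-fold lower. *Rgs1* (ENSRNOG00000003895) gave 150, 151 and 159 on the control arrays and 94.4, 98.3 and 69.9 on the VCAM1-labelled arrays. Its 3 control values were close together, with a coefficient of variation of 3.33%, where 1967 features of like signal (within a factor of 1.5) had a median of 13.8%. The arrays labelled VCAM1 shRNA were more spread, at 17.6%. The means were 153.5 ± 5.11 and 87.6 ± 15.4 (SD, n = 3), a log2 difference of -0.83 with a standard error of 0.23, or 1.77-fold lower. For *Cd69* and *Srgn* the control arrays varied by 12.5% and 14.0%, about as much as features of like signal, whose medians were 13.8% and 13.4%.

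**Figure D1:**
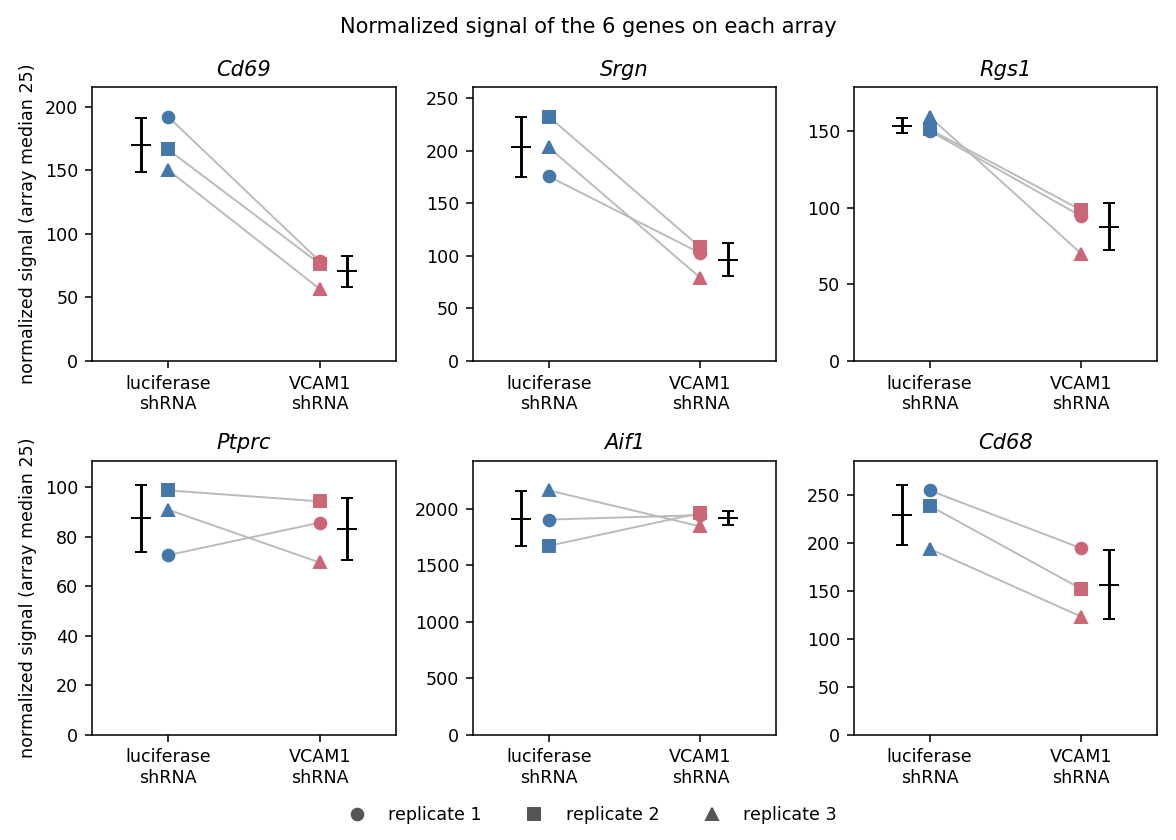
Normalized signal (array median 25, linear axis from 0) of the 6 genes on the 3 luciferase shRNA arrays (blue) and the 3 VCAM1-labelled arrays (red). Grey lines join arrays of the same replicate number, and black bars give the mean ± SD (n = 3). The groups are apart for *Cd69*, *Srgn* and *Rgs1*, overlap widely for *Ptprc* and *Aif1*, and touch for *Cd68*, where the lowest control array is at 194.2 and the highest of the other group at 194.7.

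The regulatory sequence next to these genes is shown as a description. *Srgn* and *Rgs1* were lower on every VCAM1-labelled array, and the values of *Ptprc* overlapped widely between the groups. Those of *Cd68* overlapped only slightly and were lower in every same-numbered pair, so these genes do not fall into a lowered and an unlowered class. The RefSeq promoter table (GRCr8) held 4 of the 6 genes, the others being *Cd69* and *Aif1*. The windows are the 250 bases before the annotated start, 5′ to 3′ on the gene's own strand, which is the minus strand for all 4. Capitals mark matches on either strand to any of 6 short motifs, spelled out after the sequences.
Srgn, chr20:31000104-31000353: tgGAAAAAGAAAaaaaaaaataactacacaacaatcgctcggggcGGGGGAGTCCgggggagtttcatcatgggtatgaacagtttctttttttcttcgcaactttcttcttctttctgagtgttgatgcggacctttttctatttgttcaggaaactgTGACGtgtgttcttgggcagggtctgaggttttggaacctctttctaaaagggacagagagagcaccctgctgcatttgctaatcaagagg
Rgs1, chr13:58573188-58573437: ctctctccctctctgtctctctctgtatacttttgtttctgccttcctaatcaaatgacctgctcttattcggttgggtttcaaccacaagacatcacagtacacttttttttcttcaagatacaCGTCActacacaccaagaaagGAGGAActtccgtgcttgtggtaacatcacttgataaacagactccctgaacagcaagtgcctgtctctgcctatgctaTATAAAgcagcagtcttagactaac
Ptprc, chr13:52259747-52259996: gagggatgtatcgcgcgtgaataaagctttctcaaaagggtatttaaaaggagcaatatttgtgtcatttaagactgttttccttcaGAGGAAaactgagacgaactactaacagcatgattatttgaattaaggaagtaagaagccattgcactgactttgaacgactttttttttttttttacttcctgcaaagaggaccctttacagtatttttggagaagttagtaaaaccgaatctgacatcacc
Cd68, chr10:54882442-54882691: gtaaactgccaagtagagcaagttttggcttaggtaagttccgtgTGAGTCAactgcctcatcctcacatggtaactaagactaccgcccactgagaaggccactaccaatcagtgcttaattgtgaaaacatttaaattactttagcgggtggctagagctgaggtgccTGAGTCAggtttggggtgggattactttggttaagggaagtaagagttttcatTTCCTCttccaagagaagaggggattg

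The motifs were an NF-kB site written as GGG and CC with any 5 bases between them, an AP-1 site as TGANTCA, a PU.1 site as GAGGAA, an interferon-stimulated response element as TTTC repeated after any 2 bases, the core of a cyclic AMP response element as TGACG and a TATA box as TATAAA. In the *Srgn* window the NF-kB letters began at base -205 from the start, the interferon element at -248 and the cyclic AMP core at -91. The *Rgs1* window held a PU.1 match at -104, a cyclic AMP core at -125 and a TATA box at -25. *Ptprc* had 1 match, to PU.1 at -163. *Cd68* had AP-1 letters at -205 and at -80 and a PU.1 match at -27. PU.1 is the transcription factor that sets the myeloid lineage, and its letters stood in 3 of the 4 windows. Of 33465 promoters of the same length, 42.3% held the NF-kB letters, 6.34% those of AP-1, 23.3% those of PU.1, 3.41% the interferon element, 18.2% the cyclic AMP core and 12.9% the TATA box. The cyclic AMP core was shared by the windows of *Srgn* and *Rgs1* and found in neither of the others. Whether this sharing has to do with the differences in signal was not tested. No motif overlapped another in these windows. A match describes letters in the window and says nothing of binding in these cells.

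Of the 16141 features tested, 0 passed the test across all features, so that *Aif1* and *Ptprc* did not pass sets neither apart. The group means of both markers were nearly equal. *Aif1* (ENSRNOG00000000853) gave 1903, 1670 and 2161 on control arrays 1 to 3 and 1942, 1960 and 1842 on the VCAM1-labelled arrays. The second group lay inside the range of the first. Its log2 difference was 0.010 with a standard error of 0.22 and a 95% confidence interval from -0.49 to 0.51 (limma, adjusted p = 0.999994). The exact permutation test, two-sided, gave p = 0.9, and with 3 arrays in each group it cannot go below 0.1. The means were 1911 ± 245 and 1915 ± 63.8 (SD, n = 3), so with local background left in, this microglial marker had about the same signal in both groups. With normexp on the local background and quantile normalization, its log2 difference was 0.25 with a standard error of 0.96. Its control arrays varied by 12.8% and the VCAM1-labelled ones by 3.33%.

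*Ptprc* (ENSRNOG00000000655) gave 72.6, 98.8 and 91.0 on control arrays 1 to 3. On the VCAM1-labelled arrays it gave 85.7, 94.4 and 69.6, and the groups overlapped almost entirely. The log2 difference was -0.071 with a standard error of 0.24 and a 95% confidence interval from -0.62 to 0.48 (limma, adjusted p = 0.999994). The two-sided exact permutation test gave p = 0.6. The means were 87.5 ± 13.5 and 83.2 ± 12.6 (SD, n = 3).

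*Cd68* (ENSRNOG00000037563) stood between the lowered genes and the other markers. It gave 255, 239 and 194.2 on control arrays 1 to 3 and 194.7, 152 and 123 on the VCAM1-labelled arrays. The groups overlapped by 1 array, and each VCAM1-labelled array was below the control array of its own number, as were 7.04% of the features tested, with 11% above it in every pair. The means were 229.5 ± 31.6 and 156.8 ± 35.9 (SD, n = 3), a log2 difference of -0.57 with a standard error of 0.26 and a 95% confidence interval from -1.15 to 0.020. It did not pass the threshold (limma, adjusted p = 0.999994). The two-sided exact permutation test gave p = 0.2. When replicate number entered as a block, the interval of the difference, not adjusted for the number of features, ran from -1.06 to -0.069, and the adjusted p in limma was 0.73. Over all 16141 features, limma called 0 (0%) after adjustment, and 286 (1.77%) lay below 0.05 without it. With the block it called 20 (0.124%), and 874 (5.41%) lay below 0.05 without adjustment.

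The summed signal of the 3 markers ran from 2008 to 2446 over the control arrays and from 2035 to 2222 over the VCAM1-labelled ones, and 3 of 3 were detected on every array. *Aif1* makes up most of that sum, and the signals of different spots are no measure of relative abundance. The markers were also compared with each other within arrays, in 3 comparisons. The log2 difference of *Aif1* exceeded that of *Cd68* by 0.42, 0.88 and 0.43 in pairs 1 to 3 (two-sided exact permutation test, p = 0.2, adjusted 0.3). That of *Ptprc* exceeded *Cd68* by 0.63, 0.59 and 0.27 (p = 0.2, adjusted 0.3, exact permutation test). Between *Ptprc* and *Aif1* the sign varied, with 0.21, -0.30 and -0.16 (p = 0.8, adjusted 0.8, exact permutation test). With 3 arrays in each group this exact test cannot reach the threshold of 0.05. That none of these comparisons passed it therefore says nothing of whether the markers differed.

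Set side by side within pairs of arrays, the lowered genes and the markers changed by unequal amounts. The log2 difference of *Cd69* was -1.29, -1.12 and -1.41 in pairs 1 to 3, where that of *Aif1* was 0.030, 0.23 and -0.23, that of *Ptprc* 0.24, -0.066 and -0.39 and that of *Cd68* -0.39, -0.65 and -0.66. *Srgn* gave -0.78, -1.11 and -1.36, and *Rgs1* gave -0.67, -0.62 and -1.19. Subtracting the difference of *Aif1* left -1.28 ± 0.094 for *Cd69*, -1.09 ± 0.27 for *Srgn* and -0.84 ± 0.13 for *Rgs1* (mean ± SD, n = 3 pairs). Subtracting that of *Ptprc* left -1.20 ± 0.29, -1.01 ± 0.032 and -0.75 ± 0.18. Subtracting that of *Cd68* left less, -0.71 ± 0.22 for *Cd69*, -0.52 ± 0.17 for *Srgn* and -0.26 ± 0.28 for *Rgs1*. In the pair of replicate 2, *Rgs1* and *Cd68* differed by only 0.032. Of these 9 mean differences, those against *Cd68* are the smallest for each lowered gene. They are descriptions, since the 3 genes were chosen on this contrast. As measured, the differences of *Aif1* and *Ptprc* took both signs over the 3 pairs, as did the median over all features. Those of *Cd68*, like those of the lowered genes, were negative in all 3, as were those of 7.04% of the features tested. Against each pair's median over all features, *Ptprc* too was lower in all 3. The part of cell composition in the values of *Cd68* was not tested.

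**Figure D2:**
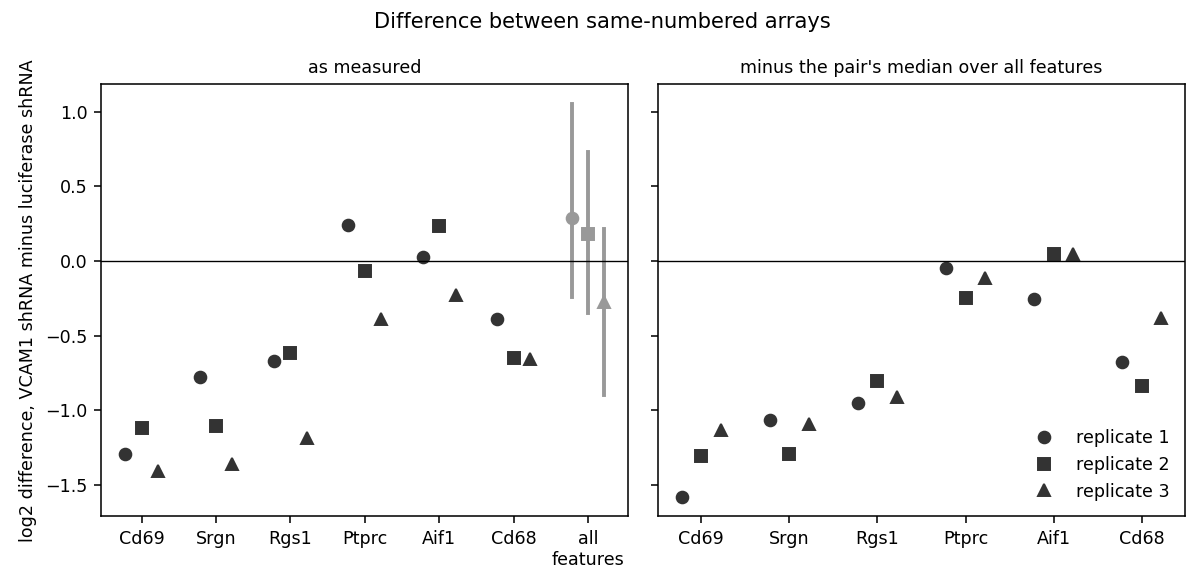
Log2 difference between arrays of the same replicate number, VCAM1 shRNA minus luciferase shRNA, for the 6 genes. On the left the values are as measured, with the median (grey symbol) and the central 90% (grey line, from the 5th to the 95th percentile) of the 16141 features tested. On the right each pair's median over all features was subtracted. *Cd69*, *Srgn*, *Rgs1* and *Cd68* lie below 0 in every pair on both sides, while *Aif1* and *Ptprc* lie between -0.26 and 0.048 on the right.

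Relative to the median of all features in the same pair, *Cd69* was at -1.58, -1.31 and -1.13, *Srgn* at -1.06, -1.29 and -1.09 and *Rgs1* at -0.95, -0.80 and -0.91. *Cd69* was then lowest in the pair of replicate 1, and *Rgs1* was nearly the same in all 3. The SD over pairs went from 0.32 to 0.078 for *Rgs1* and from 0.29 to 0.12 for *Srgn*, and from 0.14 to 0.22 for *Cd69*. On this scale *Ptprc* was at -0.045, -0.25 and -0.11, *Aif1* at -0.26, 0.048 and 0.043, and *Cd68* at -0.68, -0.83 and -0.38. *Aif1* was the only one of the 6 that stood above the median feature in any pair. *Cd68* was furthest below it in pair 2 and least in pair 3. With both arrays of replicate 3 left out, the log2 difference was -1.21 for *Cd69*, -0.94 for *Srgn*, -0.64 for *Rgs1* and -0.52 for *Cd68*.

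All 6 spots stood well clear of the blank spots. The lowest background-corrected signal of any of them, that of *Cd69*, was 69.0 times the detection limit of its array, and that of *Aif1* was never less than 2142 times. The scanner's local background around these spots ranged from 20.0% of the spot median (*Cd69*, control replicate 1) to 94.3% (*Aif1*, VCAM1-labelled replicate 1). This local background was not subtracted in the deposited values. Around *Aif1* it ran from 1480 (VCAM1-labelled replicate 3) to 3921 (control replicate 3) scanner units. The blank spots averaged from 13.9 (VCAM1-labelled replicate 1) to 39.7 (VCAM1-labelled replicate 3) per array. For *Cd69* the local background was 20.0%, 61.2% and 67.9% of the spot on the control arrays and 44.8%, 86.5% and 53.4% on the VCAM1-labelled arrays. The groups thus overlapped in this respect. When it was modelled with normexp, followed by quantile normalization, *Cd69* gave a log2 difference of -1.14, *Srgn* -0.94, *Rgs1* -0.64 and *Cd68* -0.42. Their standard errors were then 0.17, 0.31, 0.33 and 0.45. *Aif1* gave 0.25 with a standard error of 0.96, and *Ptprc* gave 0.070 with a standard error of 0.40. The 6 spots lie in 6 different blocks of the chip. The log2 difference averaged over pairs had a median between 0.0023 in the block of *Cd69* and 0.10 in that of *Aif1*. A block median says nothing of a single spot, and local effects at these spots were not tested.

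**Figure D3:**
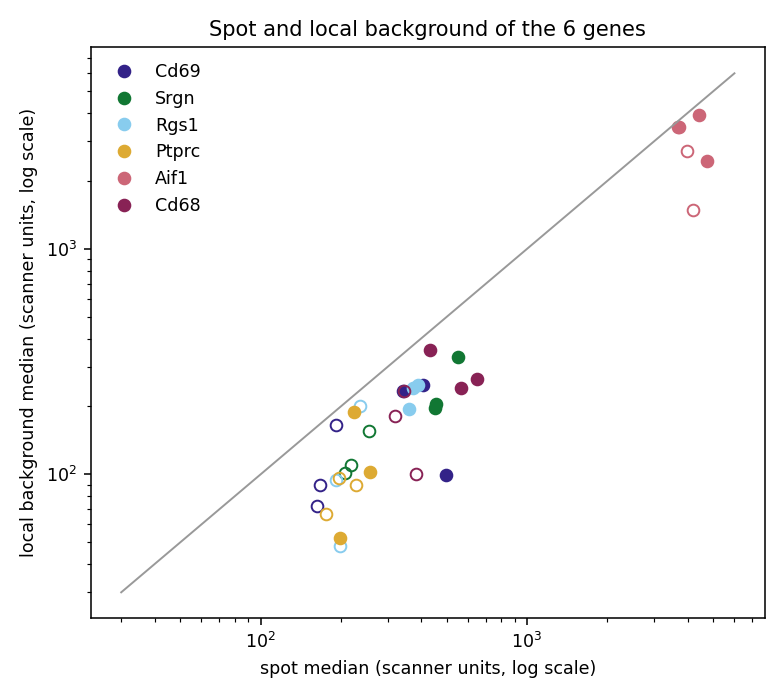
Spot median (horizontal axis) and local background median (vertical axis), both in scanner units on log axes, for the 6 genes on 6 arrays. Filled points are luciferase shRNA arrays, open points are VCAM1-labelled arrays, and the grey line marks equal values. Every point lies below the line, its background being lower than its spot, and the bright *Aif1* spots, at 3690 or more, have local backgrounds of 1480 or more.

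As a description of likeness, the log2 signals of each lowered gene were correlated with those of 8027 other features that were detected on all 6 arrays and had a mean signal of at least 25. These correlations are over 6 arrays that fall into the 2 groups and share a chip type and replicate numbers. For *Cd69*, the 5 most similar features had r between 0.984 and 0.987, led by ENSRNOG00000002792. *Rgs1* came at number 18 with r = 0.97, *Srgn* at number 31 with r = 0.95 and *Cd68* at number 63 with r = 0.91. *Ptprc* came at number 2241, with r = 0.24, and *Aif1* at number 4591, with r = -0.048. For *Srgn*, the feature ENSRNOG00000032978 was the most similar (r = 0.99), *Rgs1* was number 7 and *Cd69* number 38. *Cd68* was number 197 for *Srgn* (r = 0.82), *Ptprc* number 992 (r = 0.48) and *Aif1* number 5654 (r = -0.078). For *Rgs1*, *Srgn* was number 18 and *Cd69* number 22, with r of 0.97 each. *Cd68* was number 189 for *Rgs1* (r = 0.86), *Ptprc* number 1490 (r = 0.43) and *Aif1* number 4231 (r = 0.094). All these values include the difference between the groups, on which the lowered genes were chosen, and carry no test.

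**Figure D4:**
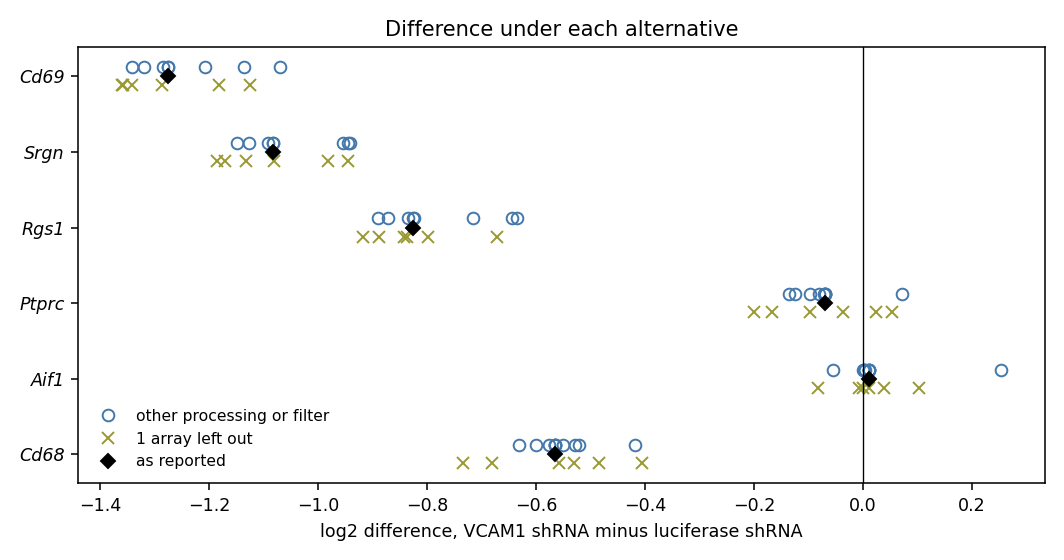
Log2 difference of the 6 genes, VCAM1 shRNA minus luciferase shRNA, as reported (black diamonds), under other ways of processing or filtering the arrays (blue circles) and with 1 array left out (crosses). *Cd69* stays between -1.36 and -1.07, *Srgn* between -1.18 and -0.94, *Rgs1* between -0.92 and -0.64 and *Cd68* between -0.73 and -0.40, while *Ptprc* and *Aif1* fall on both sides of 0.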

How the data were processed

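RNA of 6 samples was hybridized to 6 one-colour chips. The authors deposited the scanner's spot and local background medians as intensity values without correction, and a table of intensities after global normalization to a median of 25. Its steps were rebuilt from the spot values. The mean of the blank spots (5808, trimmed by 5% at each end) was subtracted, features above it by more than 2 SD were detected, and the detected signals were scaled. The rebuilt signals were within 0.18% of those deposited. An undetected signal was set to the lowest detected one of its array, and log2 was taken. Features detected on at least 3 arrays were compared with limma 3.58.1 (lmFit, eBayes) in R 4.3.3, with Benjamini-Hochberg adjustment over all of them and a threshold of 0.05. The test was run on simulated data with the same SD for every feature and no shifts between arrays or pairs. These data do have such shifts, so that run does not show how the test behaves on them. Single values were compared by exact permutation. Python 3.11.15, pandas 2.3.3, scipy 1.17.1 and matplotlib 3.10.9 were also used. The number of arrays limits the precision.

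Samples were grouped by their titles. Deviations from the group means of same-numbered arrays had correlations of 0.70, 0.63 and 0.51 over features. Correlations between arrays of different number are not given. The numbers in the labels were used to pair the arrays for differences within pairs, while the main test used no block. Alternatives were other background corrections, scalings and filters, the deposited table, the replicate block, the methods' t-test, and each array left out. The median over features detected on all arrays and the removal of replicate 3 were added after seeing the data. The 6 genes and all lists were chosen with earlier results of these data known. The named genes were the 6 members, the targeted gene and the features most similar to the lowered genes over the arrays. The names of *Ptprc*, *Aif1* and *Cd68* came with that choice. For *Cd69*, *Srgn* and *Rgs1*, 1 of 14204 features matched the study's entry of that name in both its ratio and its p, and it was the row used. Of 20174 array identifiers, 0 were found in the reference gene table, so 13 lists of 163 marker and pathway genes were not looked up. The submitters' tool versions are not given in the sources used here.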

Additional observations from a re-analysis of the deposited data

How the results depend on the processing

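The log2 differences of *Cd69*, *Srgn* and *Rgs1* kept their sign under all 14 alternatives run for each of them, and *Cd68* under all 17. *Cd69*, *Srgn* and *Rgs1* were chosen as among the most lowered on these same arrays, so their kept sign is no test. The replicate block could not change a sign, since it left each difference as reported (-1.27 for *Cd69*, -0.57 for *Cd68*). The detection filters likewise left *Cd68* at -0.57. With 1 array left out the log2 differences lay between -1.36 and -1.12 for *Cd69*, -1.18 and -0.94 for *Srgn*, -0.92 and -0.67 for *Rgs1* and -0.73 and -0.40 for *Cd68*. The lowest of these for *Cd68* came without VCAM1-labelled replicate 1 and the highest without VCAM1-labelled replicate 3. The adjusted p of *Cd68* in limma lay between 0.63 and 1. *Ptprc* changed sign to 0.070 with normexp on the local background and lay between -0.20 and 0.052 with 1 array left out, above 0 without luciferase replicate 2 or VCAM1-labelled replicate 3. *Aif1* changed sign to -0.055 when arrays were centred on features detected on all of them, lay between -0.083, without luciferase replicate 2, and 0.10 with 1 array left out, with -3.0e-04 and -0.0072 without VCAM1-labelled replicates 1 and 2, and reached 0.25 with normexp on the local background. Their adjusted p stayed at 0.92 or above. The number of features called was 0 with 1 array left out, 3 with normexp without local background and 20 with the replicate block, which changed no call among the markers. Without adjustment, 286 features lay below 0.05 as reported, 839 with normexp without local background, 650 with quantile normalization, 874 with the block, 602 when centred as above, 353 with the methods' t-test, and 166, 182, 354 and 1357 without luciferase replicate 2 and VCAM1-labelled replicates 2, 1 and 3. The share of higher features among them was 65.7% as reported, 39.6%, 41.8%, 76.0%, 50.2% and 49.3% under the first 5 of these, and 73.5%, 41.8%, 26.0% and 95.2% under the last 4. What caused these changes was not tested. The small number of arrays limits what can be told for *Ptprc*, *Aif1* and *Cd68*.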
